A study of Rattus norvegicus with 8 samples.

Results

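Brain endothelium and barrier genes were described here through 10 genes: Pecam1, Cdh5, Kdr, Flt1, Tek, Plvap, Slc2a1, Slco1a4, Pdgfrb and Vwf. Their probes were found by gene name, as those the array names after them. The 10 genes held 12 of the 30367 probes and 21 of the 42877 spots on the array that are not controls, out of 19204 named genes. The study asked how gene expression in the hypothalamus differs between the sexes of Sprague Dawley rats 3 to 4 months old. Total RNA of 4 females, all in estrus, and of 4 males was hybridised to 4 two-colour Agilent arrays on 1 slide, so that sex and cycle stage cannot be told apart. Each array carried 1 female and 1 male in opposite dyes, with the female in Cy3 on arrays 1 and 3 and in Cy5 on arrays 2 and 4. Animals are numbered by array, so female 1 and male 1 shared array 1.

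Endothelial cells line the blood vessels of the brain, and in most regions they form the blood-brain barrier through tight junctions, few vesicles and a set of selective transporters, with pericytes wrapped around the capillaries. The median eminence at the base of the hypothalamus is an exception: its capillaries are fenestrated, so that neurohormones can enter the portal blood. VEGF from neighbouring cells acts on endothelial receptors, angiopoietins act on Tek, and PDGF-B released by the endothelium acts on Pdgfrb of pericytes.

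The probes are 60-base oligonucleotides, read here 5′ to 3′ with positions in the rn4 build, as the array files give them. Exon and UTR annotation of that build was not used here. Vwf was the only member with more than 1 probe, and its 3 sequences are shown because 1 of them disagreed with the other pair in its values. The downstream pair start 148 bases apart at chr4:161854554-161854613 (A_64_P114913) and chr4:161854702-161854759 (A_64_P136501). The third probe, A_64_P286599 at chr4:161738186-161738245, starts 116516 bases from the farther of them. Capitals mark a polyadenylation hexamer, AATAAA, in A_64_P136501, of which 30 bases are shown, and a run of AC repeats in A_64_P286599.
A_64_P114913: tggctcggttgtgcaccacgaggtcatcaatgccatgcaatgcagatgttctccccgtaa
A_64_P136501: tcctgggcccacAATAAAggccaagttctc
A_64_P286599: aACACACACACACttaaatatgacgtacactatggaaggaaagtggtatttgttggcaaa
AATAAA, searched on the strand as printed, occurred in 4 of the 12 member probes (Pecam1, Plvap, Slco1a4 and this Vwf probe) and in 8.39% of all probes on the array. An AC repeat of 5 or more units occurred in 0.069% of all probes.

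The probes of Cdh5 (chr19:779665-779724), Flt1 (chr12:7957094-7957153) and Tek (chr5:115178576-115178635) are shown because they were the members closest to background, so that their ratios carry the least signal.
Cdh5: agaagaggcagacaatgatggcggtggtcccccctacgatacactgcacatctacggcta
Flt1: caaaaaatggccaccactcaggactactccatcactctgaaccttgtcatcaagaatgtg
Tek: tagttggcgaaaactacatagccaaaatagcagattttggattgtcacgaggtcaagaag
The other single probes lie at chr10:96056219-96056278 (Pecam1), chr16:18668570-18668629 (Plvap), chr5:139718779-139718838 (Slc2a1), chr18:57053387-57053446 (Pdgfrb) and chr4_random:2089150-2089209 (Slco1a4). The Kdr probe has no position in the array files.

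All 12 member probes were well above background in 8 of 8 samples, and 0 of their spots were saturated. Over all spots, the median signal less background of a sample lay between 501.8 and 530.1 for Cy3 and between 147.7 and 271.8 for Cy5. Male 2 stood apart from the other 7 animals. The median of 15 hypothalamic marker genes lay at -1.82 in male 2, against -0.069 to 0.69 in the others, as log2 levels less the mean of the samples in the same dye. The median of 11 markers of cortex, hippocampus and striatum lay at 1.71 in male 2 and -0.74 to 0.31 in the others. Male 2 is part of the Cy3 mean. Its level therefore shifts such values of females 1 and 3 and male 4, also in Cy3, the opposite way. Array 2, which carries male 2, had the widest log2 ratios of female over male, with an SD over genes of 0.64 against 0.38 to 0.39 on the others. Ratios are therefore given with and without array 2.

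None of the 10 members differed between the sexes past the threshold (limma, Benjamini-Hochberg adjusted p under 0.05), in a fit where 0 of 14603 genes did (0%). At an unadjusted p under 0.05 the members again numbered 0, beside 1243 of 14603 genes (8.51%), made up of 5.01% of all genes with the higher level in females and 3.51% with the higher level in males. Of the 12 member probes 0 had such a p, beside 8.5% of all probes. By their brightest probe 4 members had a fitted log2 ratio of female over male above 0 (Kdr, Plvap, Vwf and Pecam1) and 6 had one below 0, where 56.2% of all genes had one above 0. At that probe 0 members had a ratio above 0 on 4 of 4 arrays, beside 5.06% of all genes, and 0 had one below 0 on all 4, beside 5.56%. The median log2 ratio of the members was -0.016 and that of all genes 0.021. The members' median turned to 0.061 without array 3 and to 0.047 without array 4. The female and male levels overlapped at all 12 probes, also after the dye effect was taken out. Over all genes, by the brightest probe, the dye-adjusted levels of the sexes did not overlap for 6.21%. That share is too low for overlap at all 12 probes to set the members apart. In RNA from whole tissue, fewer cells of a type and less RNA per cell cannot be told apart.

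**Figure D1:**
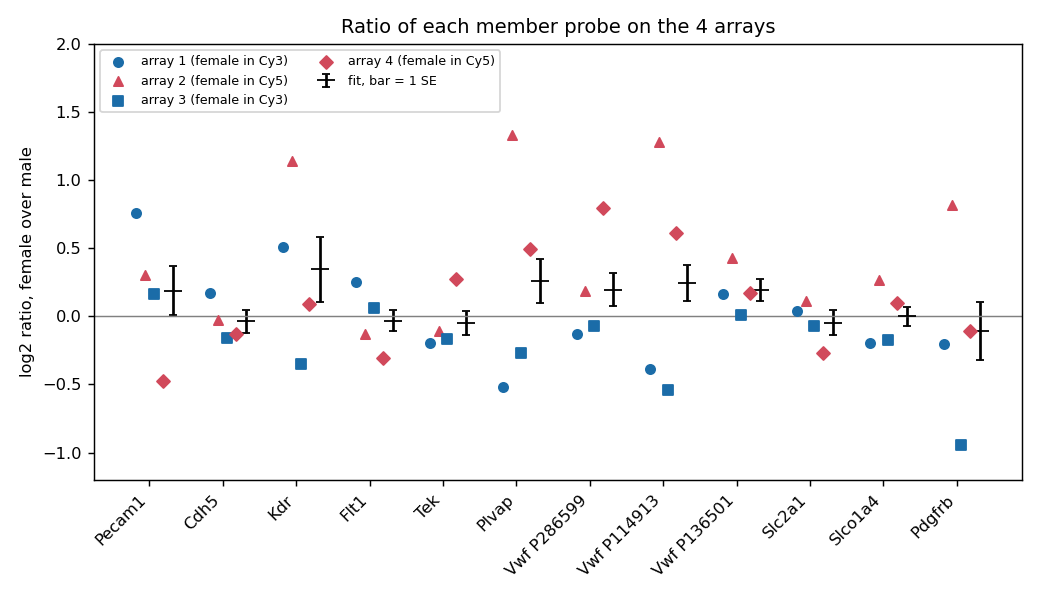
Log2 ratio of female over male for each of the 12 member probes (vertical axis) on each of the 4 arrays (points), with the fitted ratio and a bar of its SE. The SE bars of Kdr, Plvap, Pecam1 and each Vwf probe lie above 0. The confidence intervals given in the text, which are wider than these bars and not drawn, all include 0. The points of Kdr, Plvap, Pdgfrb and the Vwf probe A_64_P114913 spread most, with array 2 as their highest.

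Kdr, the principal signalling receptor for VEGF in endothelial cells, had the largest fitted difference among the members. Its normalized log2 levels, which still hold the dye effect, were 12.10, 11.88, 11.64 and 12.03 in females 1 to 4 and 11.60, 10.74, 11.996 and 11.95 in males 1 to 4. The sexes overlapped, with male 2 the lowest of the 8 animals and the other 3 males within or just below the range of the females. The female mean was 11.92 ± 0.20 and the male mean 11.57 ± 0.58 (SD, n = 4 each). The log2 ratios on arrays 1 to 4 were 0.51, 1.14, -0.35 and 0.088, above 0 on 3 of 4 arrays. The fitted ratio was 0.35 ± 0.24 (SE), or 1.27-fold, with an interval of -0.31 to 1.00 and an adjusted p of 0.601. Without array 2 it was 0.083 ± 0.20, and without array 4 it was 0.61 ± 0.20 with an adjusted p of 0.145. In the limma fit without array 4, 1093 genes had an adjusted p under 0.05, against 0 in the fit of 4 arrays.

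Flt1 is the second endothelial VEGF receptor, which binds VEGF tightly and signals weakly. Its levels were 7.73, 7.54, 7.69 and 7.60 in females 1 to 4 and 7.48, 7.66, 7.63 and 7.91 in males 1 to 4. These values, which still hold the dye effect, lay within a narrow band in which male 1 was the lowest and male 4 the highest. With the dye effect taken out, male 2 was the lowest at 7.5699, barely below male 1 at 7.5713, and male 4 stayed the highest. The ratios were 0.25, -0.13, 0.062 and -0.31, and the fit gave -0.031 ± 0.075 (adjusted p = 0.866), with an interval of -0.24 to 0.17. Without array 2 the ratio was -0.076 ± 0.080. It was -0.13 with the scanner software's ratios and -0.21 on the authors' deposited value table. The signal of Flt1 was only 2.08 to 6.23 times the local background.

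Tek, the receptor of angiopoietins that keeps vessels quiescent, had levels of 7.32, 7.23, 7.41 and 7.59 in females 1 to 4 and 7.51, 7.34, 7.57 and 7.31 in males 1 to 4. The sexes were interleaved, with female 2 lowest and female 4 highest. Ratios were below 0 on arrays 1 to 3 and above 0 on array 4 (-0.19, -0.10, -0.16 and 0.27). The fitted ratio was -0.046 ± 0.089 (adjusted p = 0.829; interval -0.29 to 0.20). Without array 2 it was 0.049 ± 0.069. The Tek signal was the closest of the members to background, 1.6 to 3.63 times it. The scanner software's own ratios for Tek were -0.026, -0.77, 0.15 and 0.55 on arrays 1 to 4, so that array 3 changed sign. A fit of those gave -0.024 ± 0.25, with a wider spread over arrays.

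Pecam1, an adhesion molecule of endothelial contacts, had levels of 9.19, 8.64, 8.80 and 8.45 in females 1 to 4 and 8.43, 8.33, 8.64 and 8.93 in males 1 to 4. Female 1 was the highest and male 2 the lowest, and the remaining animals of both sexes lay between them. The ratios were 0.76, 0.30, 0.16 and -0.47, so that array 4 opposed the other 3. The fit gave 0.19 ± 0.18 with an adjusted p of 0.67 and an interval of -0.30 to 0.67. Without array 2 the ratio was -0.0061 ± 0.15.

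Cdh5, the cadherin of endothelial adherens junctions, had the smallest spread of level over the 8 animals on the scale used here. Its levels were 7.53, 7.44, 7.35 and 7.40 in females 1 to 4 and 7.36, 7.46, 7.51 and 7.54 in males 1 to 4. All 8 values lay close together and the sexes overlapped. The ratios were 0.17, -0.025, -0.16 and -0.13 and the fitted ratio -0.036 ± 0.084 (adjusted p = 0.861), with an interval of -0.27 to 0.19. The signal was 2.04 to 4.04 times background, and the added offset of 50 draws ratios of such dim probes toward 0. The scanner software's own ratios for Cdh5 were -0.27, 0.41, -0.71 and 0.44 on arrays 1 to 4, and a fit of those gave -0.034 ± 0.12, with a wider spread over arrays. On the authors' deposited value table the Cdh5 ratio was -0.29. Without array 2 the Cdh5 ratio was -0.063 ± 0.099.

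Plvap builds the diaphragms of fenestrated capillaries and is absent from capillaries with a mature barrier. Its levels were 10.81, 11.05, 11.13 and 11.52 in females 1 to 4 and 11.33, 9.71, 11.40 and 11.02 in males 1 to 4. On these levels, which still hold the dye effect, male 2 lay more than 1 log2 unit below all other animals, and the remaining 3 males lay within the female range. With the dye effect taken out, male 2 stood at 10.042 and the next lowest animal, female 2, at 10.722. The ratios, -0.52, 1.33, -0.27 and 0.49, were above 0 on the arrays with the female in Cy5 and below 0 on the arrays with the female in Cy3. The dye term of Plvap was 0.65 ± 0.16 (adjusted p = 0.0757). With that term in the fit the ratio of female over male was 0.26 ± 0.16, with an adjusted p of 0.582 and an interval of -0.18 to 0.70. It was 0.050 ± 0.088 without array 2 and 0.47 ± 0.088 without array 4, the latter with an adjusted p of 0.0614. That fit without array 4 gave 4518 genes an unadjusted p under 0.05, against 1243 with 4 arrays. It gave 1093 genes an adjusted p under 0.05, against 0 with 4 arrays.

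**Figure D2:**
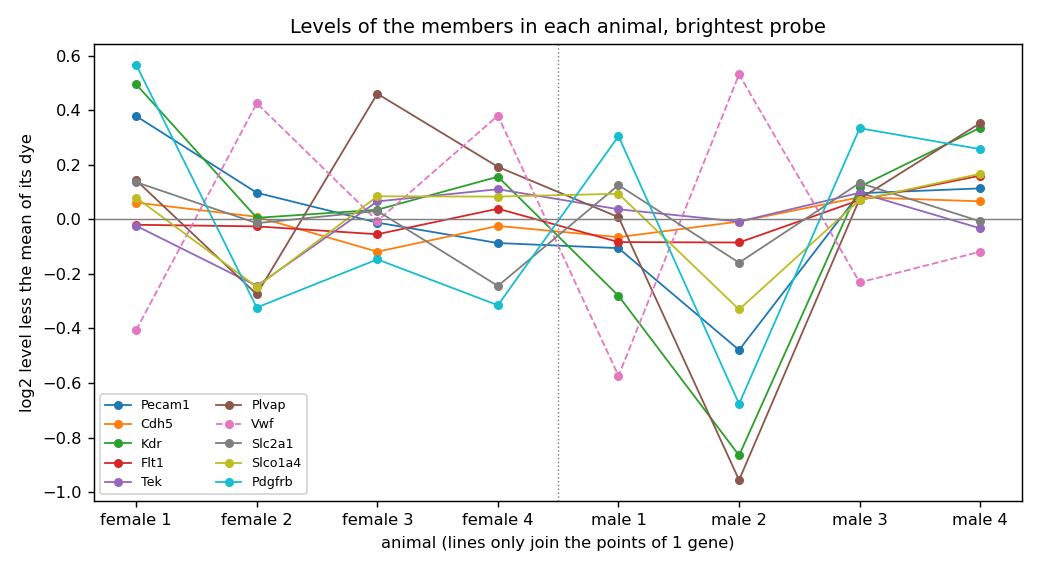
Log2 level less the mean of the 4 samples in the same dye (vertical axis) for each member in each of the 8 animals (horizontal axis, females then males), by the brightest probe. Male 2 is the lowest animal for Flt1, Kdr, Pdgfrb, Pecam1, Plvap and Slco1a4 and the highest for Vwf by A_64_P286599. Over all genes it is the lowest for 28.5% and the highest for 24.9%.

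Vwf is the large glycoprotein that endothelial cells store and release to bind platelets, and 1 of its 3 probes gave another pattern over the animals than the other pair. At the brightest probe, A_64_P286599, levels were 11.70, 12.83, 12.10 and 12.78 in females 1 to 4 and 11.83, 12.64, 12.17 and 11.99 in males 1 to 4. Here females 2 and 4 and male 2 were high and female 1 and male 1 low. The ratios were -0.13, 0.19, -0.069 and 0.79, and the fit gave 0.20 ± 0.12 (adjusted p = 0.578; interval -0.13 to 0.52). Whether this probe measures the same transcript as the downstream pair was not tested, and every value given for Vwf by its brightest probe rests on it.

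At A_64_P114913 the Vwf levels were 11.72, 11.99, 11.48 and 11.75 in females 1 to 4 and 12.11, 10.71, 12.02 and 11.13 in males 1 to 4. Male 2 was the lowest animal here, and the sexes overlapped. The ratios were -0.39, 1.28, -0.54 and 0.61 and the fitted ratio 0.24 ± 0.13 (adjusted p = 0.565), with an interval of -0.12 to 0.60. This was the only member probe with an adjusted p under 0.05 for its dye term, 0.71 ± 0.13 (adjusted p = 0.0453), beside 13.2% of all genes. Its ratios alternate in sign with the dye, as those of Plvap do, and without array 2 the fitted ratio was 0.076 ± 0.076.

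At A_64_P136501, the probe with the hexamer, the Vwf levels were 11.65, 11.34, 11.51 and 11.21 in females 1 to 4 and 11.48, 10.91, 11.50 and 11.04 in males 1 to 4. Males 2 and 4 were the lowest animals, although male 1 and male 3 lay within the female range. The ratios were above 0 on 4 of 4 arrays (0.16, 0.43, 0.012 and 0.17), which makes it the 1 member probe of the 12 with this pattern. The fitted ratio was 0.19 ± 0.079 with an unadjusted p of 0.0665, an adjusted p of 0.555 and an interval of -0.021 to 0.41. Without array 2 it was 0.13 ± 0.076. On the scanner software's scale the same probe gave -0.21, 0.73, -0.19 and 0.43, of both signs.

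With the mean of each dye taken out, A_64_P286599 read -0.41, 0.43, -0.0062 and 0.38 in females 1 to 4 and -0.57, 0.53, -0.23 and -0.12 in males 1 to 4. A_64_P114913 read 0.46, 0.028, 0.22 and -0.22 in females 1 to 4 and 0.14, -0.55, 0.050 and -0.13 in males 1 to 4. A_64_P136501 read 0.37, -0.043, 0.24 and -0.17 in females 1 to 4 and 0.097, -0.36, 0.12 and -0.24 in males 1 to 4. The downstream pair thus placed female 1 highest and male 2 lowest, while A_64_P286599, with the AC repeat shown above, placed male 2 highest and female 1 among the low animals. The mean ratio over the 3 probes was -0.12, 0.63, -0.20 and 0.53 on arrays 1 to 4. The fit to that mean gave 0.21 (limma, unadjusted p = 0.0295, adjusted p = 0.592), and Vwf was then the 1 member with an unadjusted p under 0.05. Over all genes, 1172 had such a p in that fit. Over the animals A_64_P286599 ran against the probes it was averaged with (r = -0.72 with A_64_P114913 and -0.68 with A_64_P136501). The part of this opposition in the lower p of the mean was not tested. Without array 2 the probe A_64_P286599 gave 0.35 ± 0.070 with an adjusted p of 0.598.

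**Figure D3:**
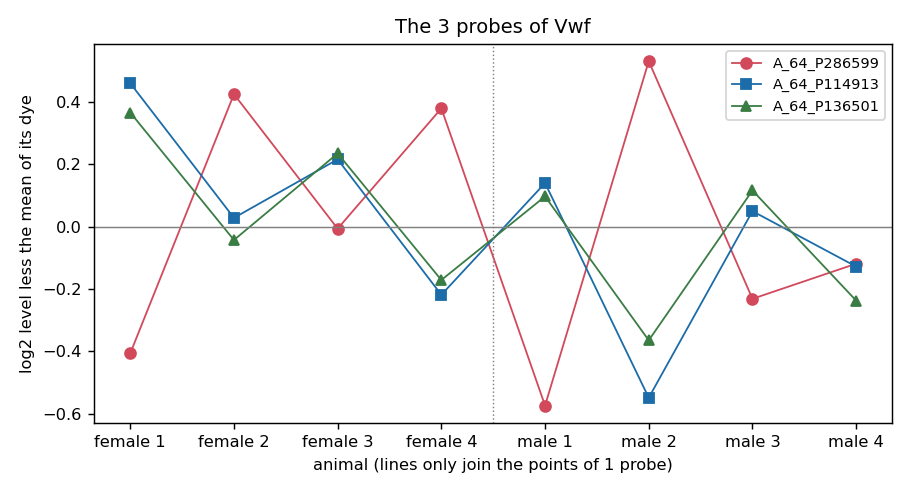
Log2 level less the mean of its dye (vertical axis) at the 3 Vwf probes in each of the 8 animals (horizontal axis). The lines of A_64_P114913 and A_64_P136501 run together, with male 2 at -0.55 and -0.36, whereas A_64_P286599 has male 2 at 0.53.

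Slc2a1, the glucose transporter of barrier endothelium, was the member measured most often, with 10 spots for its 1 probe on each array. Its levels were 13.40, 13.22, 13.29 and 12.99 in females 1 to 4 and 13.36, 13.10, 13.36 and 13.25 in males 1 to 4. All 8 lay within a narrow range, with female 4 lowest and female 1 highest. The ratios were 0.040, 0.12, -0.073 and -0.27, and the fitted ratio was -0.046 ± 0.091 (adjusted p = 0.835; interval -0.29 to 0.20). Over the spots of 1 array the SD of its log2 ratio was 0.18 to 0.24, and 0.047 to 0.063 on the scanner software's scale. Without array 2 the ratio of Slc2a1 was -0.14 ± 0.073. The median SD over spots of the 1302 probes with 5 or more spots was 0.23 to 0.30 on the scale used here, and 0.068 to 0.078 on that of the scanner software. The other 11 member probes had 1 spot each, so that their error between spots was not measured.

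Slco1a4, an organic anion transporter of brain capillaries, gave the fitted ratio nearest 0. Its levels were 12.70, 12.55, 12.70 and 12.88 in females 1 to 4 and 12.89, 12.29, 12.87 and 12.78 in males 1 to 4. On these levels, which still hold the dye effect, male 2 was again the lowest, and males 1 and 3 and female 4 were the highest. With the dye effect taken out, male 4 was the highest, at 12.875, and male 2 stayed the lowest. The ratios were -0.20, 0.27, -0.17 and 0.10, with the sign following the dye, and the fit gave -0.00032 ± 0.067 (adjusted p = 0.999). The interval, -0.18 to 0.18, was the narrowest of the 10 members, and without array 2 the ratio was -0.042 ± 0.069.

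Pdgfrb, the PDGF receptor by which endothelium recruits pericytes, was the 1 member that marks the cells outside the endothelium. Its levels were 9.79, 9.36, 9.07 and 9.37 in females 1 to 4 and 9.99, 8.54, 10.02 and 9.48 in males 1 to 4. On these levels, which still hold the dye effect, male 2 was the lowest, while males 1 and 3 were the highest. With the dye effect taken out, female 1 was the highest, at 10.019, against 9.757 in male 1 and 9.786 in male 3, and male 2 stayed the lowest. The dye term, 0.47 ± 0.21, was fitted with male 2 included, so this order of the highest animals depends on male 2. The ratios were -0.21, 0.82, -0.95 and -0.11, and only that of array 2 was above 0. The fitted ratio was -0.11 ± 0.21 (adjusted p = 0.83; interval -0.69 to 0.47), and -0.34 ± 0.18 with an adjusted p of 0.616 without array 2.

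The members differed in how far they varied over the 8 animals. The SD of the dye-centred level was 0.45 for Plvap, 0.43 for Pdgfrb, 0.42 for Kdr and 0.41 for Vwf by A_64_P286599, at percentiles 91.6 to 93.2 of all genes ranked by SD. It was 0.25 for Pecam1, 0.18 for Slco1a4, 0.14 for Slc2a1 and 0.11 for Tek. It was 0.085 for Flt1 and 0.069 for Cdh5, where the median of all genes was 0.16 and both of these probes were dim. Male 2 was the lowest of 8 animals for 6 of the 10 members (Flt1, Kdr, Pdgfrb, Pecam1, Plvap and Slco1a4), as it was for 28.5% of all genes. It was the highest for 1 member, Vwf by A_64_P286599, and for 24.9% of all genes. It stood at -0.96 for Plvap, -0.87 for Kdr and -0.68 for Pdgfrb. Female 1 was the highest for 4 members, as for 14.8% of all genes. The part of male 2's marker levels in these values was not tested.

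**Figure D4:**
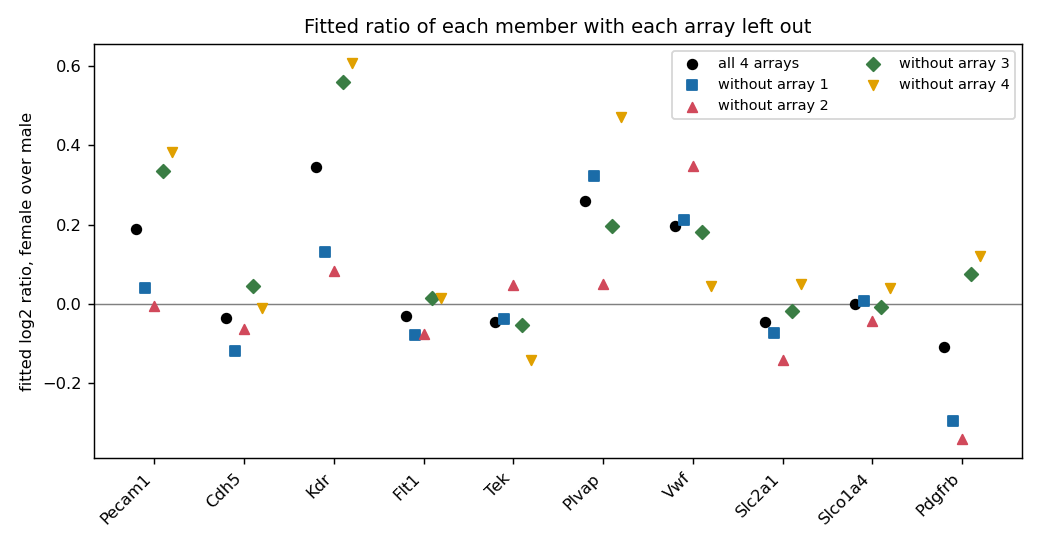
Fitted log2 ratio of female over male for each of the 10 members (vertical axis) with all 4 arrays and with each array left out in turn. Kdr, Plvap and Vwf stay above 0 in all of these fits, and Kdr and Plvap lie lowest without array 2.

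The 5 genes outside the list whose pattern over the 8 animals was most like the members' mean pattern were Slf2 (Pearson r = 0.998), Sim1 (0.995), Col5a2 (0.995), RGD1564906 (0.991) and Dcaf12l1 (0.991). These r describe 8 animals that share 4 arrays and were picked as the highest among all genes. All 5 were lowest in male 2. Sim1, a transcription factor of the paraventricular nucleus, is also among the hypothalamic markers given above.

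Of the other endothelial genes, 35 of the 39 on the array passed the filter on dim probes, 20 with a log2 ratio above 0 and 15 below 0. The median ratio was 0.034 (-0.000072 without array 2, and -0.034 to 0.12 over the fits that leave out 1 array), and 3 had an unadjusted p under 0.05 with the higher level in females and 0 with the higher level in males. Thbd, the endothelial receptor that turns thrombin toward protein C, had a ratio of 1.14 ± 0.29, above 0 on 4 of 4 arrays (unadjusted p = 0.0146, adjusted p = 0.555), and of 0.74 ± 0.091 without array 2 (adjusted p = 0.598). Gja5, a connexin of arterial endothelium, stood at 0.24 ± 0.066 and Icam1, a leukocyte adhesion molecule, at 0.36 ± 0.11, both above 0 on 4 of 4 arrays. Without array 2 they stood at 0.27 ± 0.071 and 0.22 ± 0.072. In none of the lists here did a gene pass the adjusted threshold in limma.

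Of the ligands, other receptors and targets of VEGF, angiopoietin and PDGF signalling, 25 of the 29 on the array passed the filter on dim probes, 15 with a log2 ratio above 0 and 10 below 0. Their median was 0.023 (-0.039 without array 2, and -0.039 to 0.093 over the fits that leave out 1 array), and 3 had an unadjusted p under 0.05 with the higher level in females and 2 with the higher level in males. Pdgfrl, a receptor-like protein, had a ratio of 0.68 ± 0.072, above 0 on 4 of 4 arrays, and Angptl4, a secreted inhibitor of lipoprotein lipase, 0.44 ± 0.079, above 0 on 3 of 4 arrays. Hey1, a transcriptional target of Notch, had -0.31 ± 0.067, below 0 on 4 of 4 arrays. The adjusted p of each was 0.555. Without array 2 Pdgfrl had 0.62 ± 0.070, Angptl4 0.46 ± 0.093 and Hey1 -0.33 ± 0.077.

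Of the Wnt and Norrin genes of barrier formation, 13 of the 14 on the array passed the filter on dim probes, 6 with a log2 ratio above 0 and 7 below 0. Their median was -0.033 (-0.027 without array 2, and -0.089 to -0.027 over the fits that leave out 1 array), and 0 had an unadjusted p under 0.05 with the higher level in females and 1 with the higher level in males. Tnfrsf21, a receptor needed for brain vessel growth under Wnt control, had a ratio of -0.31 ± 0.063, below 0 on 4 of 4 arrays. Tspan12, the Norrin co-receptor, had -0.51 ± 0.25 and Lef1, a transcription factor of the pathway, 0.22 ± 0.12. Without array 2 Tnfrsf21 had -0.29 ± 0.072, Tspan12 -0.72 ± 0.26 and Lef1 0.12 ± 0.12. Of the junction genes, 17 of the 20 on the array passed the filter on dim probes, 7 with a log2 ratio above 0 and 10 below 0. The median of this list was -0.086 (-0.0047 without array 2, and -0.11 to -0.0047 over the fits that leave out 1 array), and 0 had an unadjusted p under 0.05 with the higher level in females and 1 with the higher level in males. Cldn12, a claudin, had -0.24 ± 0.072 and the scaffold Tjp1 -0.29 ± 0.11, both below 0 on 4 of 4 arrays, and Jam3 had -0.24 ± 0.095. These ratios were nearer 0 without array 2, at -0.18 ± 0.069 for Cldn12, -0.17 ± 0.097 for Tjp1 and -0.14 ± 0.080 for Jam3.

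Of the other capillary transporters and receptors, 35 of the 38 on the array passed the filter on dim probes, 16 with a log2 ratio above 0 and 19 below 0. The median of this list was -0.034 (0.023 without array 2, and -0.036 to 0.023 over the fits that leave out 1 array), and 1 had an unadjusted p under 0.05 with the higher level in females and 2 with the higher level in males. Slco1a5, a relative of Slco1a4, had a ratio of -0.29 ± 0.098, below 0 on 4 of 4 arrays, against -0.00032 ± 0.067 for Slco1a4 itself. The cationic amino acid transporter Slc7a1 had -0.33 ± 0.079 and the efflux pump Abcc1 0.28 ± 0.077. Without array 2 Slco1a5 had -0.40 ± 0.069, Slc7a1 -0.34 ± 0.093 and Abcc1 0.25 ± 0.085. Of the haemostasis genes, 13 of the 19 on the array passed the filter on dim probes, 9 with a log2 ratio above 0 and 4 below 0. The median of this list was 0.091 (0.11 without array 2, and 0.056 to 0.15 over the fits that leave out 1 array), and 2 had an unadjusted p under 0.05 with the higher level in females and 0 with the higher level in males. Besides Thbd, which is in this list too, the prostacyclin synthase Ptgis had 0.22 ± 0.079 and the cyclooxygenase Ptgs1 0.16 ± 0.071, and without array 2 they had 0.29 ± 0.075 and 0.11 ± 0.070.

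Of the pericyte genes, 18 of the 18 on the array passed the filter on dim probes, 13 with a log2 ratio above 0 and 5 below 0. The median of this list was 0.053 (0.037 without array 2, and 0.00078 to 0.12 over the fits that leave out 1 array), and 2 had an unadjusted p under 0.05 with the higher level in females and 0 with the higher level in males. Des, an intermediate filament protein shared with smooth muscle, had a ratio of 0.62 ± 0.16, above 0 on 3 of 4 arrays. Higd1b had 0.23 ± 0.077 and Cspg4, the NG2 proteoglycan, 0.12 ± 0.062. Without array 2 Des had 0.70 ± 0.19, Higd1b 0.21 ± 0.090 and Cspg4 0.13 ± 0.070. Of these 18 genes 13 had a ratio above 0, beside 56.2% of all genes. The fitted ratio of Pdgfrb was -0.11 ± 0.21, and turned to 0.076 without array 3 and to 0.12 without array 4. Whether Pdgfrb differs from these genes was not tested.

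Of the smooth muscle markers 12 of the 12 on the array passed the filter on dim probes, 11 with a log2 ratio above 0 and 1 below 0. Their median ratio was 0.49 (0.48 without array 2), and 5 had an unadjusted p under 0.05 with the higher level in females and 0 with the higher level in males. Before the dye term, their median ratio on arrays 1 to 4 was -0.070, 0.93, -0.46 and 0.92, with the sign following the dye. Their median dye-centred level was -0.58 to 1.00 in females and -1.04 to 0.16 in males, lowest in male 2 and highest in female 1. Of the meningeal and fibroblast markers 16 of the 16 on the array passed the filter on dim probes, 14 with a log2 ratio above 0 and 2 below 0. Their median ratio was 0.41 (0.14 without array 2), and 5 had an unadjusted p under 0.05 with the higher level in females and 0 with the higher level in males. On arrays 1 to 4 their median ratio was -0.13, 1.26, -0.57 and 0.48, again with the sign following the dye. Their level was -0.28 to 1.11 in females and -1.22 to 0.32 in males, again lowest in male 2 and highest in female 1. The same median over the 10 members was -0.020 to 0.11 in females and -0.24 to 0.14 in males. Red blood cell markers had a median ratio of 0.17 (5 of 6 above 0) and -0.32 without array 2, with median levels of -0.16 to 0.48 in females and -0.60 to 0.51 in males. No marker of these 3 lists was at background in all 8 animals, and their part in the members' values was not tested.

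**Figure D5:**
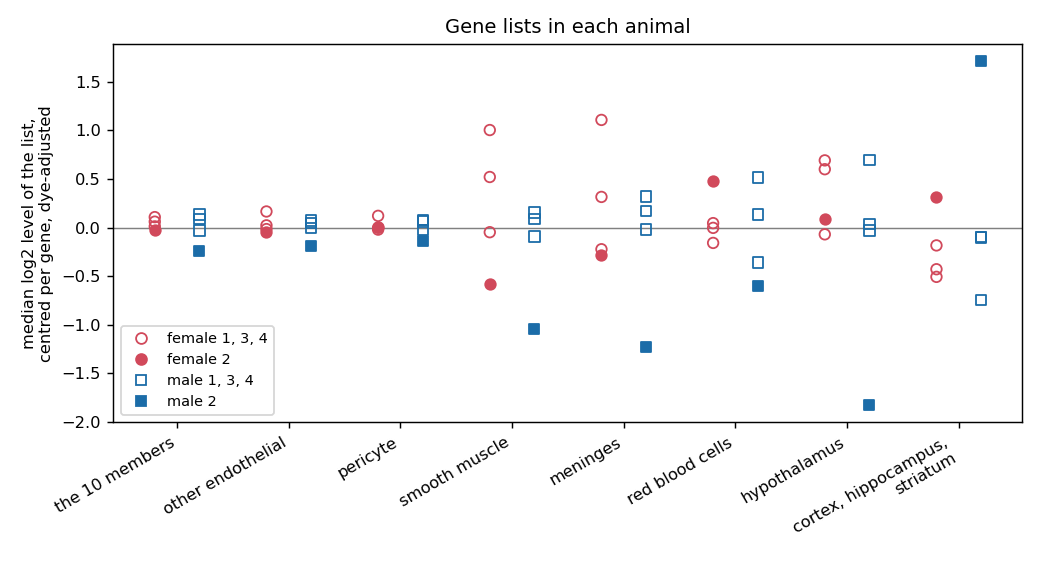
Median dye-centred log2 level (vertical axis) of the 10 members and of marker lists (horizontal axis) in each of the 8 animals. Points are animals, circles for females and squares for males, with female 2 and male 2 filled. The members' median runs from -0.24 in male 2 to 0.14 in male 4, whereas the smooth muscle and meningeal markers span more than 2 log2 units.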

How the data were processed

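The submitters' processing notes name Agilent Feature Extraction 10.7.3.1 as the scan quantifier. Per the file headers, the mean spot and median local background signals are intensity values as scanned, and the log ratio given by the scanner software is a log10 value, red over green. The value table the authors deposited holds log2 values, equal to log2 of median signal less local background minus a constant per column, and columns of other samples numbered 0. RefSeq (GRCr8) named 17328 probes through their accessions, the array files named 5371 more and 7668 stayed unnamed, and 10 of 10 members matched.

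Mean signals were corrected with normexp (offset 50) and normalized by loess within arrays, controls at weight 0, in limma 3.58.1 (R 4.3.3, with version 1.17.8 of data.table). Outlier spots were left out, 3 of them at member probes, and replicate spots averaged. A probe entered the fit where, in each of the 4 samples of a sex, over 0.5 of its spots exceeded background clearly by the scanner's own call, as 22004 did, of which 21995 could be fitted. Log2 ratios (female over male) were fitted by lmFit and eBayes with terms for sex and, per gene, for dye, with Benjamini-Hochberg adjustment over all probes and a threshold of 0.05. Each gene was taken at its brightest probe. Single-channel levels follow Aquantile, and intervals are at 95%. Levels are compared over animals only, never between probes. The script was tested on simulated data.

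Each array is the replicate block of its female and male, since ratios are taken within it. The deviations of its 2 animals correlated over genes at 0.61, 0.68, 0.47 and -0.084 on arrays 1 to 4. Named genes were all members with every probe, up to 3 genes of smallest unadjusted p in each vascular list, and the 5 genes most like the members' mean pattern. Members and lists were chosen with earlier results of these data known. Alternatives changed the dye term, background correction, normalization, filter, outlier spots, probe choice, prior and arrays. Those with each other Vwf probe were chosen after seeing the data.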

Additional observations from a re-analysis of the deposited data

Results flagged for a closer look

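Of 24 groups of 4 animals tested for an animal far from the others, 2 had a gap above Dixon's critical value at the 95% level, where chance alone gives about 5% of groups. For Pdgfrb in males the gap was 0.924 of the group's range, with male 2 at a dye-adjusted log2 level of 8.78 and the other 3 at 9.71 to 9.79. For Slco1a4 in females it was 0.986, with female 2 at 12.46 and the other 3 at 12.79. Female 2 and male 2 shared array 2.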

How the results depend on the processing

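With each array left out in turn, the fitted ratio ran over -0.0061 to 0.38 for Pecam1, -0.12 to 0.045 for Cdh5, -0.078 to 0.016 for Flt1, -0.14 to 0.049 for Tek, -0.14 to 0.049 for Slc2a1, -0.042 to 0.041 for Slco1a4 and -0.34 to 0.12 for Pdgfrb, changing sign in each. It ran over 0.083 to 0.61 for Kdr, 0.050 to 0.47 for Plvap and 0.045 to 0.35 for Vwf, without a change of sign. Cdh5 reached -0.29 and Flt1 -0.21 on the deposited value table, and Flt1 -0.13 with the scanner software's ratios. Slco1a4 also turned to 0.0031 without background correction and Tek to 0.021 on the deposited value table. The 0 members with an unadjusted p under 0.05 became 1 (Vwf) with the mean of all probes, and 0 to 2 with an array left out (Kdr and Plvap without array 4, Vwf without array 2). Genes with an unadjusted p under 0.05, 1243 in all, numbered 404 with no dye term and 776 with median centring. They numbered 1172 with the mean of all probes and 288 to 4518 with an array left out, the most without array 4. Genes with an adjusted p under 0.05, 0 in the fit of 4 arrays, numbered 0 to 1093 with an array left out, the most without array 4, and 0 of these were members. Fitted on single channels, without the array as replicate block, 1086 genes had an unadjusted p under 0.05, 0 an adjusted one, and the call of no member changed. The median of the transporter list was -0.049 with no dye term, -0.018 without background correction, -0.13 on the value table and -0.036 to 0.023 with an array left out. That of the Wnt list was -0.19 with the scanner software's ratios, -0.11 on the value table and -0.089 to -0.027 with an array left out. The haemostasis median was 0.18 with the scanner software's ratios, and on the value table the junction median was -0.22 and the pericyte median -0.052. The cause of these shifts was not tested. The number of arrays limits the precision. The signals of Tek, Cdh5 and Flt1 were the closest to background.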

Other observations

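Markers of the cells that surround the vessels gave the following median log2 ratios of female over male: astrocytes, whose endfeet cover the capillaries, -0.015 (5 of 10 above 0, and -0.054 without array 2), microglia and macrophages 0.20 (8 of 12 above 0, and 0.11 without array 2) and oligodendrocytes -0.25 (1 of 11 above 0, and -0.19 without array 2). For neurons the median was -0.22 (5 of 11 above 0, and -0.021 without array 2), and for tanycytes and ependyma, which line the third ventricle next to the fenestrated vessels, 0.15 (6 of 9 above 0, and 0.020 without array 2). Pituitary markers had 0.14 (7 of 8 above 0, and 0.0053 without array 2), choroid plexus markers -0.15 (2 of 11 above 0, and -0.26 without array 2), hypothalamic markers 0.71 (14 of 15 above 0, and -0.053 without array 2) and markers of cortex, hippocampus and striatum -0.43 (3 of 11 above 0, and -0.0014 without array 2). At an unadjusted p under 0.05, 2 tanycyte, 2 hypothalamic, 1 pituitary and 1 astrocyte genes were higher in females. On the same terms 2 forebrain genes and 1 gene each of the choroid plexus, microglia, astrocyte and oligodendrocyte lists were higher in males. Over all genes 5.01% were higher in females and 3.51% in males. Without array 2, 2 hypothalamic, 1 pituitary and 1 tanycyte genes were higher in females. Higher in males were then 6 choroid plexus, 3 forebrain, 3 hypothalamic, 2 pituitary, 2 oligodendrocyte, 1 tanycyte and 1 astrocyte genes, beside 1169 genes of either direction over all. With limma's adjusted p under 0.05, 0 genes of these lists were called.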
